A study of Equus caballus with 19 samples.

Results

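The fibrillar collagens were followed in equine tenocytes that had been cultured with interleukin-1 beta (IL-1β). The family was taken as 10 chain genes: COL1A1 and COL1A2 (type I), COL2A1 (type II), COL3A1 (type III), COL5A1, COL5A2 and COL5A3 (type V), COL11A1 (type XI), COL24A1 (type XXIV) and COL27A1 (type XXVII). Members were found by gene name among the 29196 gene names of each expression table. Of the 10, 9 had a row in both tables and 8 had enough reads to be tested. COL3A1 was not analysed here, and COL2A1 was too low to test.

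Tenocytes, the fibroblasts of tendon, came from the superficial digital flexor tendon of adult, wild-type (WT) Thoroughbred horses and were expanded over several passages before use. They were seeded into gels of bovine type I collagen held between pins, and RNA was taken after 14 days. The first batch held 5 tenocyte lines, each cultured untreated (control) or under IL-1β at 1 nM (10 libraries). The second held 3 other lines in 3 conditions, the third being IL-1β at the same dose together with the interleukin-1 receptor antagonist IL1Ra at 100 ng/ml (9 libraries). The first batch's lines are numbered from 1 to 5, the second's from 6 to 8. All libraries of a batch share the gel, the serum-containing medium and the culture time, and passaged tenocytes in a gel that was supplied as ready-made collagen are a limited model of tendon.

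A fibrillar collagen chain folds with other chains into a long unbroken triple helix, which is secreted as procollagen, trimmed of its propeptides and assembled into fibrils. Type I, a trimer of COL1A1 and COL1A2 chains, carries most of the load in tendon. Type V chains start fibrils and limit their width, type XI does so in cartilage and can combine with type V chains, and types XXIV and XXVII are minor, evolutionarily distinct members. IL-1β is an inflammatory cytokine, and IL1Ra competes with it for its receptor.

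Expression is given as normalised counts, which are read counts that the authors scaled for sequencing depth within a batch. A library of the first batch held between 43393903 and 49197980 of them in all, and one of the second between 24964149 and 34602014. Since each batch was normalised separately, levels were compared only within a batch. Gene length was not accounted for, so the level of 1 chain cannot be set against that of another. Tendon genes were expressed in the first batch, where 7 of 8 tendon markers had a median of at least 10 normalised counts in controls. This bar does not single out tendon cells. In the same controls 6 of 6 smooth muscle and pericyte markers and 4 of 6 bone markers with a row also reached it. The tendon transcription factor SCX lay between 822 and 2110 in controls. TNMD, a marker of mature tendon, was at 0 in all 10 libraries. Control SCX was 4720 in line 6, 266 in line 7 and 105 in line 8, so the second batch's lines stood far apart in this factor before any cytokine was added. Control levels of COMP, a tendon matrix glycoprotein, were ordered in the same way, at 51392, 1069 and 131. Other tendon markers were mixed in these controls. MKX ranged from 11.5 to 4059, whereas TNC ranged from 39094 to 71309 and DCN from 29947 to 55627. The 8 markers summed to 179803, 103983 and 82142.5 in lines 6, 7 and 8.

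Transcripts of both type I chains, of the main type V chain and of the type XI chain were lower with IL-1β in the first batch. COL1A1, COL1A2, COL5A1 and COL11A1 were differentially expressed (DE: adjusted p under 0.05 and a log2-fold change of at least 1 in size), and all 4 were lower with IL-1β. Over all 14719 genes tested, 7.9% were DE and lower. The other 4 tested members did not meet both criteria. The median log2-fold change of the 8 tested members was −1.49, against −0.0034 over all genes, and 8 of 8 were negative against 50.3% of all genes. Summed over the 9 members with a row, without COL3A1, the chains made up between 2.53% and 4.51% of a control library's normalised counts and between 0.788% and 1.81% with IL-1β. These are bulk samples, in which fewer cells of a type and less RNA per cell cannot be told apart.

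**Figure D1:**
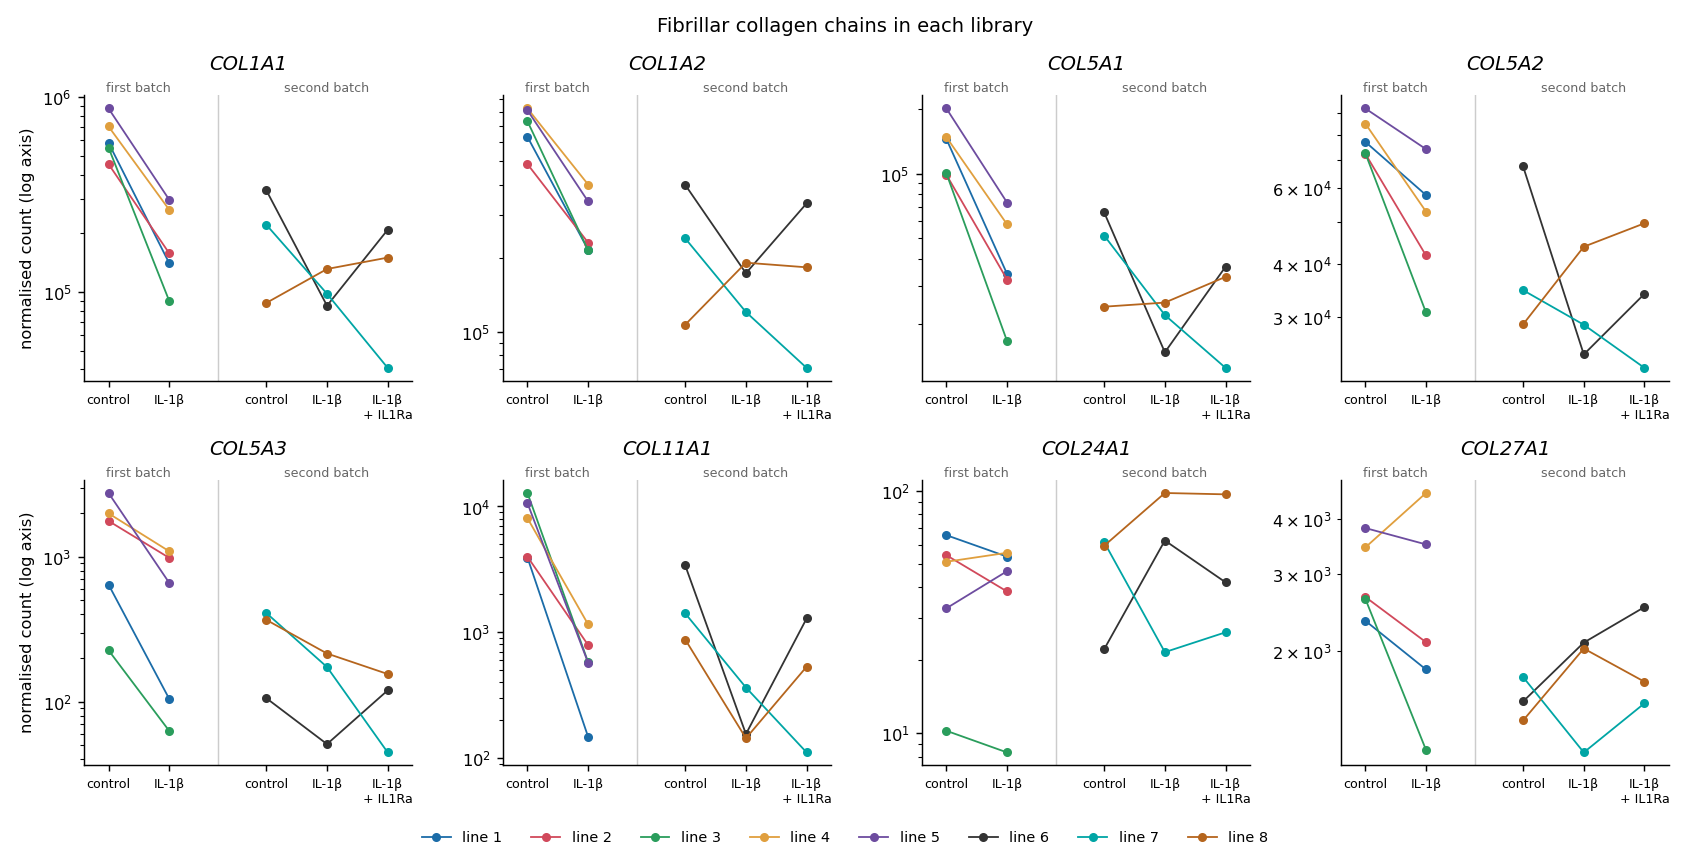
Normalised counts (log axis) of the 8 tested fibrillar collagen genes in every library, 1 panel per gene, with each line's libraries joined. In the first batch (lines 1 to 5) COL1A1, COL1A2, COL5A1 and COL11A1 were lower with IL-1β in all 5 lines with no overlap between groups, while line 8 of the second batch ran against lines 6 and 7 for the type I chains and COL5A2.

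COL1A1 encodes the α1 chain of type I collagen. Its control libraries of lines 1 to 5 held 582578, 453618, 551091, 707720 and 875669 normalised counts. With IL-1β the same lines held 140469, 157931, 89921, 264223 and 297566. The groups did not overlap, and each line retained between 0.163 (line 3) and 0.373 (line 4) of its control level. The log2-fold change was −1.83 (SE 0.38, adjusted p = 0.00588, n = 5 lines), a level 3.56 times lower.

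COL1A2 encodes the α2 chain, the partner of COL1A1. Controls held 630587, 487238, 730770, 824636 and 810637 normalised counts, and the IL-1β libraries 216825, 231840, 215751, 401661 and 342307. The lowest control, line 2, was still above the highest IL-1β library, line 4. The log2-fold change was −1.33 (SE 0.33, adjusted p = 0.0136), or 2.52 times lower. Leaving out line 5 gave a log2-fold change of −1.35 with an adjusted p of 0.0601, which did not pass, and leaving out 1 of the other 4 lines gave adjusted p between 0.0252 and 0.0494. Over all alternatives tried the adjusted p of COL1A2 ranged from 0.00294 to 0.0601.

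The type V chains did not move alike. COL5A1, the chain present in the common type V trimer, held 144789, 98761, 100320, 147666 and 200753 normalised counts in controls and 34189, 32187, 16660, 58091 and 73350 with IL-1β. These groups were fully separate, and the log2-fold change was −1.82 (SE 0.38, adjusted p = 0.00592), close in size to that of COL1A1. COL5A2, the second chain of that trimer, held 76995, 72237, 72491, 84954 and 92116 in controls against 57855, 41826, 30800, 52957 and 74036 with IL-1β. Every line was lower, but the IL-1β library of line 5 lay above the controls of lines 2 and 3. Its log2-fold change of −0.69 (SE 0.22, adjusted p = 0.0410) passed the adjusted p and missed the fold threshold, so COL5A2 was not DE.

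COL5A3, a less widespread type V chain, differed most between lines. Its controls held 644, 1772, 226, 1999 and 2764 normalised counts, a 12.2-fold range, and 96.4% of tested genes had a smaller SD among these controls. With IL-1β the 5 lines held 104, 985, 62.7, 1093 and 662. Each line was lower than its own control, although the groups overlapped widely. The log2-fold change was −1.65 (SE 0.95, adjusted p = 0.224). When the tenocyte line was fitted as a block, which removes the differences between lines, the SE fell to 0.28 and the adjusted p to 0.00436, and COL5A3 became the fifth DE member, in a fit where 10.2% of all genes were DE and lower.

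COL11A1, the type XI chain best known from cartilage, changed most within the family. Controls held 3929, 3990, 12802, 8077 and 10642 normalised counts, and the IL-1β libraries 147, 791, 578, 1154 and 571. The highest IL-1β value, in line 4, was well under the lowest control. The log2-fold change was −3.71 (SE 0.54, adjusted p = 8.69e-04), or 13.1 times lower. Only 122 of the 14719 tested genes had a more negative log2-fold change. The adjusted p stayed between 6.86e-04 and 0.00992 over the alternatives tried.

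The minor chains gave no call in the first batch. COL27A1, a chain of type XXVII collagen, which occurs in cartilage and in developing tissues, held 2347, 2659, 2634, 3444 and 3812 normalised counts in controls and 1819, 2098, 1194, 4579 and 3499 with IL-1β. It was lower in 4 of 5 lines and higher in line 4 (log2-fold change −0.31, SE 0.32, 95% interval −1.03 to 0.41, adjusted p = 0.514). COL24A1, the type XXIV chain, held 65.6, 54.2, 10.2, 50.9 and 32.7 in controls and 53.5, 38.4, 8.34, 55.5 and 46.6 with IL-1β. Line 3 was lowest in both groups, and the groups covered nearly the same range (log2-fold change −0.09, SE 0.62, 95% interval −1.45 to 1.28, adjusted p = 0.938). COL2A1, the cartilage collagen, reached 4.15 normalised counts at most and was at 0 in 2 of 5 controls and 4 of 5 IL-1β libraries.

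Counting lines rather than means, 6 of the 8 members were lower with IL-1β in every line of the first batch, against a background of 25% of all genes. For 4 of the 8 the groups did not overlap, where 10.2% of all genes were lower without overlap. In lines 1, 2 and 3 all 8 members were below their control, in line 5 it was 7 (COL24A1 was above), and in line 4 it was 6 (COL24A1 and COL27A1 were above). A background over all genes was not computed line by line.

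**Figure D2:**
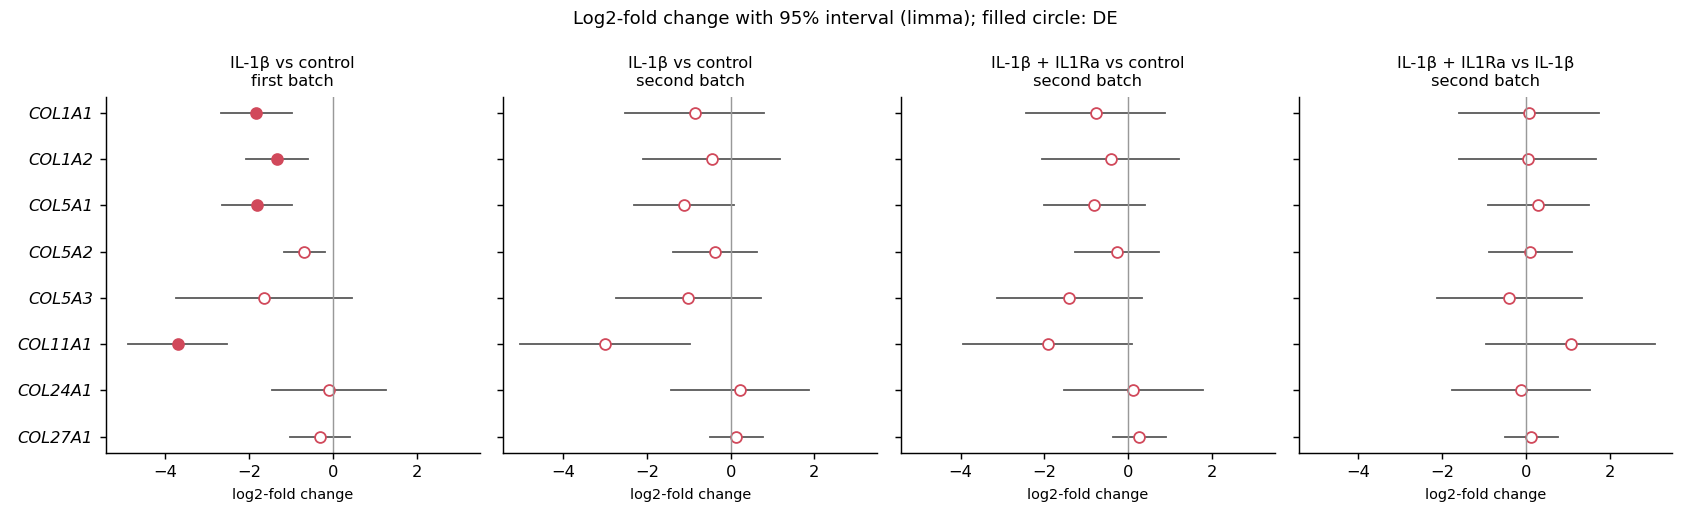
Log2-fold changes (points) with 95% intervals (bars) from limma for the 8 tested members in the 4 comparisons, filled where a member was DE. COL1A1, COL1A2, COL5A1 and COL11A1 are filled in the first batch, no member is filled in the second, and COL11A1 lies farthest to the left whenever IL-1β is set against control.

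The second batch asked whether IL1Ra prevents the response to IL-1β. Of the 8 members, 0 were DE between IL-1β and control by limma, where 0.341% of 16705 genes were DE. With the line as a block 0 were DE again, against 5.18% of all genes. At an unadjusted threshold of 0.05, 1 of the 8 members passed without the block (COL11A1), as did 11.4% of all genes. The lines differed in direction: all 8 members were lower with IL-1β in line 7, 6 in line 6 and 2 in line 8. The share of all genes lower within a single line was not computed.

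COL11A1 was again the member with the lowest log2-fold change. Lines 6, 7 and 8 held 3395, 1412 and 875 normalised counts as controls, 155, 364 and 144 with IL-1β, and 1288, 111 and 532 with IL-1β + IL1Ra. The IL-1β libraries all lay below the controls, which made COL11A1 the only 1 of 8 members without overlap, at a background of 7.61% of genes lower without overlap. The log2-fold change between IL-1β and control was −3.00 (SE 0.88, 95% interval −5.02 to −0.98), and its adjusted p of 0.231 (0.0746 with the line as a block, 0.0746 to 1 over the alternatives) did not pass. COL11A1 and COL5A3 were the 2 members lower in every line of this batch, where 18.9% of all genes were.

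With IL1Ra added, COL11A1 stood at 0.379 of its control level in line 6 and 0.609 in line 8, and at 0.0791 in line 7. The corresponding values for IL-1β alone were 0.0460, 0.165 and 0.258. Measured directly against the IL-1β library of the same line, IL-1β + IL1Ra was 8.25 times as high in line 6 and 3.69 times as high in line 8. In line 7 it was lower, at 0.307 of the IL-1β level. The average log2 difference between IL-1β + IL1Ra and IL-1β was 1.07 (SE 0.88, 95% interval −0.95 to 3.10, adjusted p = 1.00).

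The type I chains differed in direction between lines. COL1A1 held 332642, 221346 and 87792 normalised counts in the controls of lines 6, 7 and 8, 84945, 97816 and 131132 with IL-1β, and 208673, 40715 and 150054 with IL-1β + IL1Ra. Line 8 began with the lowest control and was 1.49 times higher with IL-1β, whereas lines 6 and 7 stood at 0.255 and 0.442 of their controls. For COL1A2 the controls held 400306, 241385 and 106825, the IL-1β libraries 173685, 120335 and 191857, and the IL-1β + IL1Ra libraries 336253, 70968 and 183657. Both chains were higher with IL-1β than in control in line 8 and lower in the other 2 lines. The log2-fold change between IL-1β and control was −0.86 (SE 0.73, adjusted p = 0.774) for COL1A1. It was −0.45 (SE 0.71, adjusted p = 0.900) for COL1A2.

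COL5A1 held 65985, 51537 and 24072 normalised counts in controls, 14778, 22010 and 25154 with IL-1β, and 36927, 12506 and 33130 with IL-1β + IL1Ra. Its log2-fold change with IL-1β was −1.11 (SE 0.52, adjusted p = 0.473), with line 8 at 1.04 times its control. COL5A2 held 67469, 34714 and 28896 in controls, 24586, 28835 and 43842 with IL-1β, and 34041, 22872 and 49719 with the antagonist added. Here line 8 was the highest of both treated groups while it was the lowest control. COL5A3 held 106, 409 and 367 in controls, 50.8, 173 and 215 with IL-1β, and 119.5, 44.5 and 155 with IL-1β + IL1Ra, and its log2-fold change with IL-1β was −1.02 (SE 0.76, adjusted p = 0.715).

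COL27A1 held 1539, 1748 and 1393 normalised counts in controls, 2093, 1179 and 2030 with IL-1β, and 2521, 1524 and 1706 with the antagonist. COL24A1 held 22.2, 61.3 and 59.3, then 62.3, 21.6 and 97.8, then 41.9, 26.1 and 96.6 in the same order. For both genes lines 6 and 8 were above control and line 7 below it in either treated group. COL2A1 was at 0 in 7 of the 9 libraries, with 0.964 in the control of line 6 and 1.16 in the IL-1β library of line 7.

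Set against control, IL-1β + IL1Ra gave 0 DE members by limma, without the line as a block (0.012% of all genes DE) and with it (0.251% of all genes). Without the block, 0 of the 8 members and 948 genes in all had an unadjusted p under 0.05. The largest of the 8 log2-fold changes in size was that of COL11A1, −1.92 (SE 0.88, 95% interval −3.95 to 0.10, adjusted p = 0.909). IL-1β + IL1Ra against IL-1β also gave 0 DE members without the block (0% of all genes) and with it (0.00599%), while 0 members and 464 genes had an unadjusted p under 0.05 without the block. The 95% intervals of this last difference were wide, from −1.59 to 1.74 for COL1A1 and from −0.90 to 1.50 for COL5A1, so the direction of this difference was not settled at 3 lines. The 3 comparisons of the second batch share libraries and are not independent of each other. Few genes of any kind were DE in them without the block, so 0 DE members does not mean unchanged levels. The study, by DESeq2 at the same thresholds, called more genes DE in each of these comparisons.

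**Figure D3:**
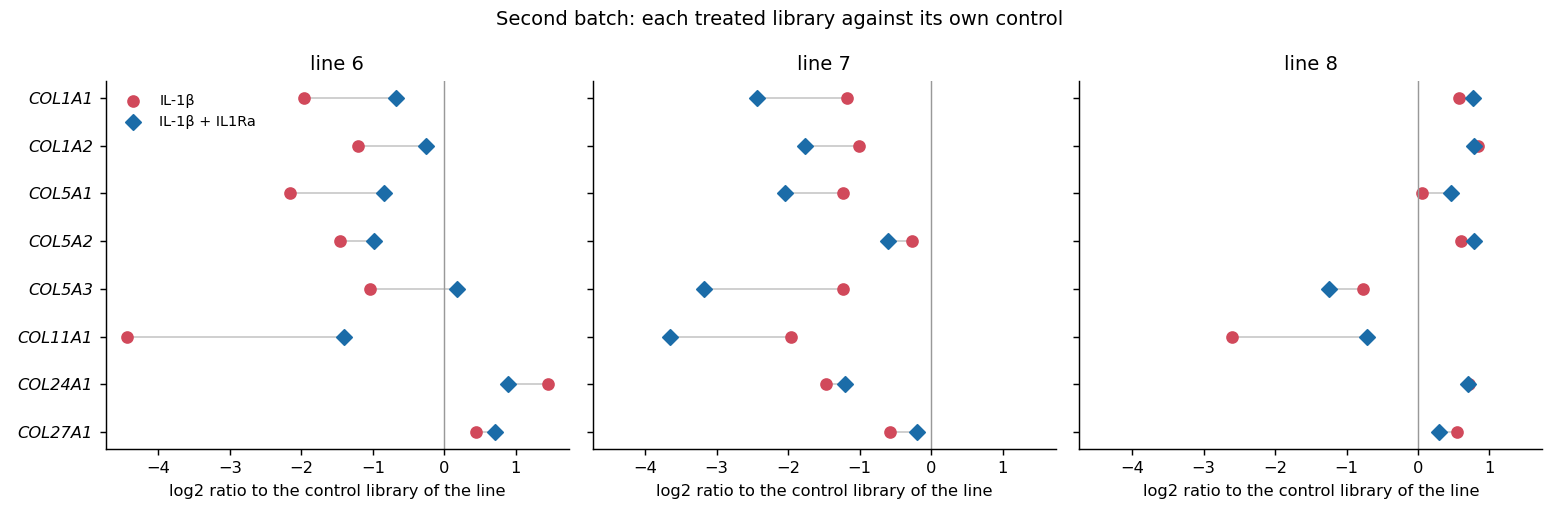
Log2 ratio of the IL-1β library (circles) and the IL-1β + IL1Ra library (diamonds) to the control library of the same line, for the 8 tested members in lines 6, 7 and 8. The diamonds of COL1A1, COL1A2, COL5A1, COL5A2, COL5A3 and COL11A1 lie to the right of the circles in line 6 and to the left in line 7.

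The difference between IL-1β + IL1Ra and IL-1β therefore had opposite signs in lines 6 and 7 for most members. In line 6, 7 of 8 members were higher with IL-1β + IL1Ra than with IL-1β, COL24A1 being the exception, with a median log2 ratio of 1.09. In line 7, 6 of 8 were lower, all but COL24A1 and COL27A1, with a median of −0.79. In line 8, 4 were higher and 4 lower, with a median of 0.08. How many of all genes were higher or lower in each line was not computed. Members that vary together are not separate observations. Among the markers of other cell types, the summed level of 6 smooth muscle and pericyte genes (ACTA2, MYH11, CNN1, DES, RGS5 and MCAM) also differed in sign. It was 12484 normalised counts with IL-1β and 24395 with IL-1β + IL1Ra in line 6, 25084 and 4215 in line 7, and 11573 and 18477 in line 8. Within it MYH11 went the other way in line 8, from 244 to 171. Summed tendon markers were at 194621 and 285937 in line 6, 93493 and 44698 in line 7, and 150844 and 128756 in line 8. In line 8 the smooth muscle sum was 12073 in control, above its IL-1β level, while both type I chains were higher with IL-1β. The part of either list in the result was not tested. With 1 library per line and condition, a line and its culture cannot be told apart.

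Chains that share a trimer can be compared as a ratio within a library, where any scaling factor common to all genes cancels out. A factor that differs between genes and libraries does not cancel. Whether the normalisation used such factors could not be told from the values. In the first batch all 3 ratios were lower with IL-1β in 5 of 5 lines. They restate differences between the log2-fold changes given above, and COL5A1 enters more than 1 of them, so they are not separate results. How often other pairs of genes give such a count was not computed. The ratio of COL1A1 to COL1A2 was 0.924, 0.931, 0.754, 0.858 and 1.08 in the controls of lines 1 to 5 and 0.648, 0.681, 0.417, 0.658 and 0.869 with IL-1β. The groups overlapped, because the IL-1β library of line 5 lay above the controls of lines 3 and 4. The mean log2 ratio differed by −0.50 (two-sided exact permutation test over the 10 libraries, p = 0.0238, adjusted p = 0.0238 over 3 ratios).

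The ratio of COL5A1 to COL5A2 was 1.88, 1.37, 1.38, 1.74 and 2.18 in controls and 0.591, 0.770, 0.541, 1.10 and 0.991 with IL-1β, with no overlap. The mean log2 ratio differed by −1.13 (exact permutation p = 0.00794, the smallest that 5 against 5 can give, adjusted p = 0.0238). The ratio of COL11A1 to COL5A1, chains that can enter mixed trimers, was 0.0271, 0.0404, 0.128, 0.0547 and 0.0530 in controls and 0.00434, 0.0246, 0.0347, 0.0199 and 0.00780 with IL-1β. Line 3 was highest in both groups, and its IL-1β library lay above the control of line 1. The mean log2 ratio differed by −1.89 (exact permutation p = 0.0159, adjusted p = 0.0238). Flipping signs within lines cannot give a p below 0.0625 with 5 lines, and all 3 ratios gave that value in the exact test. Leaving out 1 line took the adjusted exact p above 0.05 for COL1A1 to COL1A2 (without line 1, 2, 3 or 4), COL5A1 to COL5A2 (line 2 or 4) and COL11A1 to COL5A1 (line 2, 4 or 5), to between 0.0571 and 0.0857, with the direction kept each time.

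With 3 libraries against 3, an exact permutation test cannot go below p = 0.1, so the second batch could not pass, and each of the 3 ratios gave that value for IL-1β against control. COL1A1 to COL1A2 was 0.831, 0.917 and 0.822 in the controls of lines 6, 7 and 8, 0.489, 0.813 and 0.683 with IL-1β, and 0.621, 0.574 and 0.817 with IL-1β + IL1Ra. Line 8 was lower here as well, although both of its type I chains were higher with IL-1β. COL5A1 to COL5A2 was 0.978, 1.48 and 0.833 in controls, 0.601, 0.763 and 0.574 with IL-1β, and 1.08, 0.547 and 0.666 with the antagonist. COL11A1 to COL5A1 was 0.0515, 0.0274 and 0.0364, then 0.0106, 0.0166 and 0.00575, then 0.0349, 0.00894 and 0.0161 in the same order. Each of the 3 ratios was thus lower with IL-1β than in control in all 3 lines, also in line 8.

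**Figure D4:**
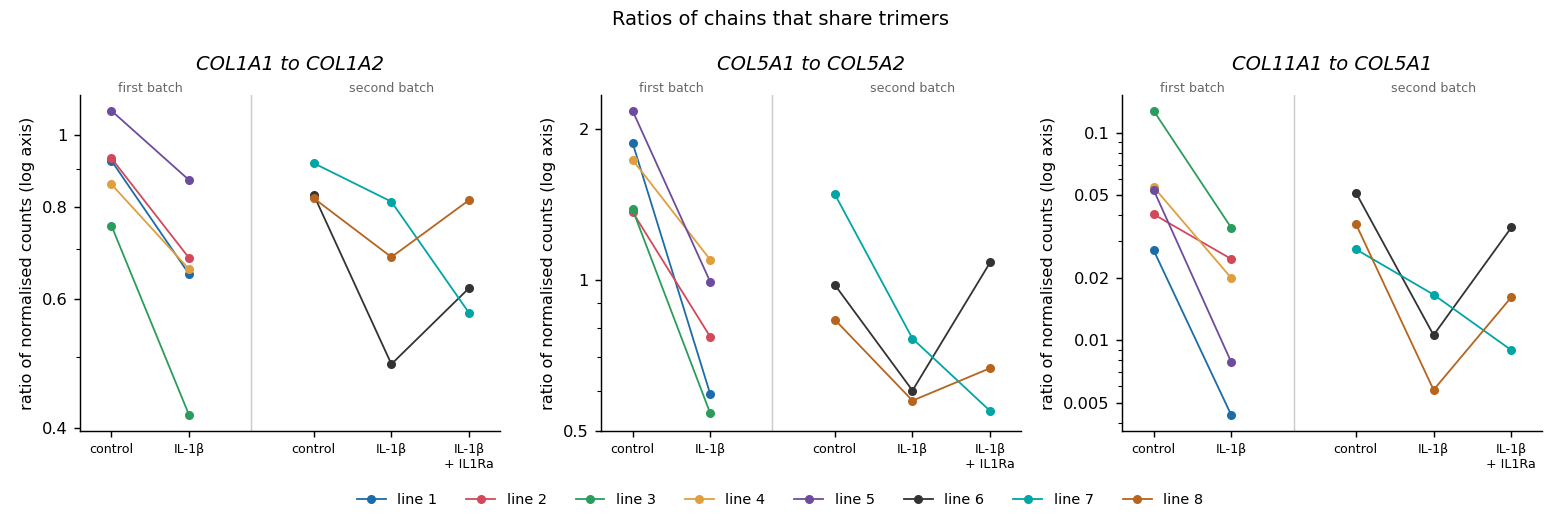
Ratio of the normalised counts of 2 chains in each library (log axis), with each line's libraries joined, for COL1A1 to COL1A2, COL5A1 to COL5A2 and COL11A1 to COL5A1. Every line from 1 to 8 slopes downward from control to IL-1β in all 3 panels, and with IL1Ra added line 7 is lower still.

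Some pairs of members varied together between lines and others did not. After the condition means were taken out, log2 levels of COL1A1 and COL5A1 correlated at r = 0.975 over the 10 libraries of the first batch and 0.978 over the 9 of the second. COL1A1 and COL1A2 gave 0.867 and 0.958, and COL5A1 and COL5A2 gave 0.898 and 0.816. COL11A1 was less tied to type I in the first batch (0.406 with COL1A1) than in the second (0.861). COL24A1 gave r of 0.492 and 0.129 with COL1A1 and of −0.38 and −0.19 with COL11A1 in the first and second batch. COL5A2 and COL11A1 gave −0.10 in the first batch, and COL5A3 gave 0.221 with COL1A1 and 0.0122 with COL1A2 in the second. These values describe libraries that share lines and, within a batch, the normalisation.

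Genes outside the family were ranked by how closely their log2 level followed a member over all libraries of the first batch. Names starting with LOC were left out. Nearest to COL1A1 were VOPP1 (r = 0.985), PCOLCE (0.982), the enhancer of procollagen C-propeptide removal, and TRPV2 (0.980). Their r with COL1A1 over the second batch was 0.705, 0.898 and 0.241. Nearest to COL5A1 were TONSL (0.973), SH3PXD2A (0.968) and GPR39 (0.968), with 0.843, 0.561 and 0.825 in the second batch. Nearest to COL11A1 were ASPN (0.990), a small proteoglycan that binds collagen, SGCD (0.989) and MXRA7 (0.989), with 0.708, 0.749 and 0.829. In these 10 libraries r includes the difference between control and IL-1β, and the 3 genes were picked for the highest r.

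Around the chains themselves stand the genes that fold, trim, cross-link, bind and cut collagen, and 6 lists of them, with 93 tested genes, were read in the same first-batch fit. Over all genes of that fit 7.9% were DE and lower and 4.91% DE and higher, and each list's counts are to be read against these shares. Of 12 tested genes for propeptide removal and cross-linking, 8 were DE and lower, 1 was DE and higher and 3 were not DE, with a median log2-fold change of −1.82. Among the lower ones, TLL1, a procollagen C-proteinase, had a log2-fold change of −4.34 (SE 0.35). The lysyl oxidase relatives LOXL4 and LOXL2, of the family that starts cross-links, stood at −3.43 (SE 0.55) and −3.35 (SE 0.51). PCOLCE2, an enhancer of C-propeptide removal, was the one that rose, by 1.69 (SE 0.42, adjusted p = 0.0141). ADAMTS14, a procollagen N-proteinase, was at −2.41 (SE 0.33).

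Of 17 tested fibril-associated collagens and fibril-binding proteins, 10 were DE and lower and 0 were DE and higher (median −2.03). ASPN at −7.73 (SE 1.08) and OGN at −7.06 (SE 1.27), both small leucine-rich proteoglycans, changed most. They were followed by COMP at −4.08 (SE 1.01), which binds fibrils, and ABI3BP at −3.72 (SE 0.80), a matrix-binding protein. FMOD, another small proteoglycan, stood at −2.03 (SE 1.05, adjusted p = 0.176) and was DE only with the line as a block (adjusted p = 0.0208). Of the 19 tested genes of procollagen modification and folding, 4 were DE, all lower (median −0.38). Those 4 were the prolyl hydroxylases P3H2 (−2.93, SE 0.39), P4HA1 (−1.24, SE 0.26) and P4HA3 (−1.17, SE 0.14) and the lysyl hydroxylase PLOD2 (−1.12, SE 0.21).

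Of 11 tested collagen-degrading proteases, 5 were DE and higher and 1 was DE and lower (median 1.20). The collagenase MMP8 rose by 7.53 (SE 1.04), the stromelysin MMP3 by 6.51 (SE 1.22) and the collagenase MMP13 by 4.36 (SE 0.54) on the log2 scale, with smaller rises of the gelatinases MMP9 (1.54, SE 0.22) and MMP2 (1.20, SE 0.24). CTSL, a lysosomal protease, fell by 2.29 (SE 0.49). MMP1, another collagenase, had a log2-fold change of 5.10 with a large error (SE 1.85, adjusted p = 0.0630). With the line as a block MMP1 (adjusted p = 0.0225) and the surface protease FAP (log2-fold change −1.18, adjusted p = 0.00830) were also DE.

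Of 9 tested collagen receptors and uptake genes, 1 was DE, a share near that over all genes. It was the integrin chain ITGA11, a receptor for fibrillar collagen, at −7.59 (SE 1.26). Among 25 tested regulators of collagen transcription 8 were DE and lower and 1 was DE and higher (median −0.24). The tendon factors SCX (−4.25, SE 0.71) and MKX (−3.95, SE 0.77), the factor EGR2 (−3.41, SE 0.60) and SOX6 (−3.92, SE 0.61), a partner of SOX9 in cartilage, fell. SOX5, a close relative of SOX6, rose by 3.30 (SE 0.27). All of the genes of the 6 lists that were DE without the block were DE with it. COL11A2, the remaining fibrillar chain gene, was at most 3.58 normalised counts in the first batch and was not tested.

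**Figure D5:**
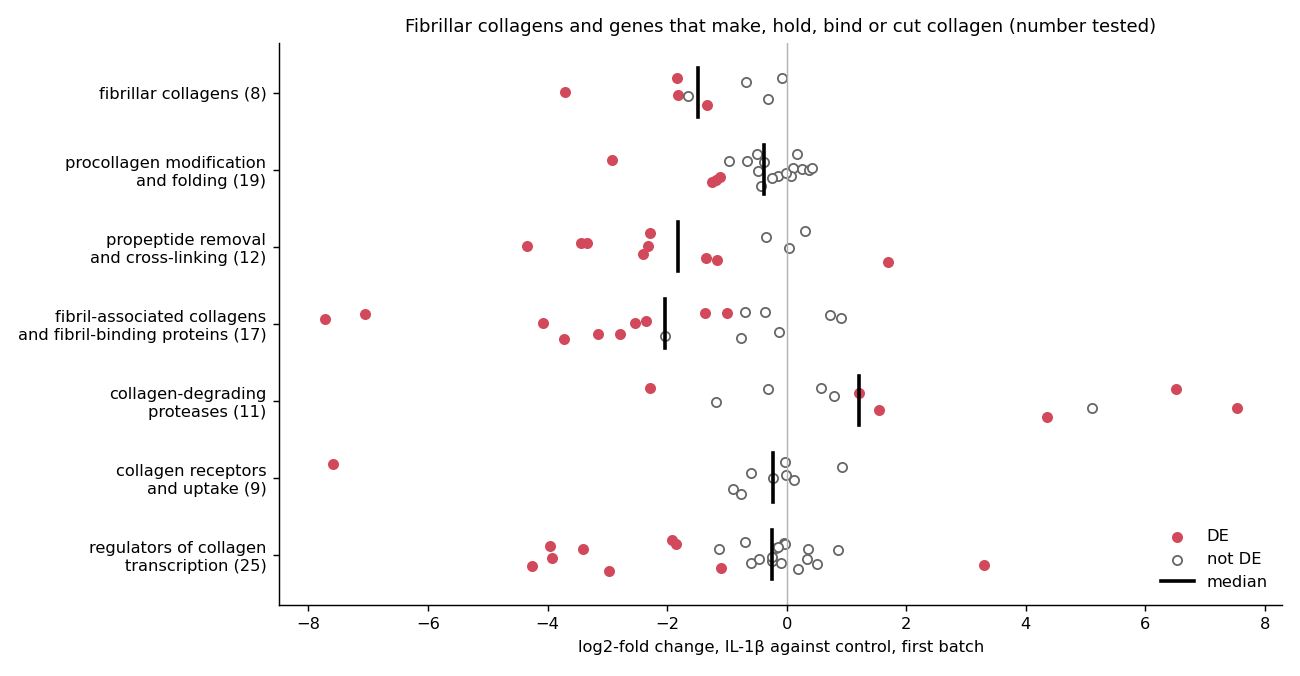
Log2-fold change between IL-1β and control in the first batch for the tested members and for 6 lists of collagen-related genes, with DE genes filled and list medians as bars. Medians of the members (−1.49), the propeptide and cross-linking genes (−1.82) and the fibril-associated genes (−2.03) lie to the left of 0, and the median of the proteases (1.20) to the right.

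For the second batch the same lists gave 1 DE gene between IL-1β and control, SOX5 (log2-fold change 3.37, SE 0.51, adjusted p = 0.0468). With the line as a block 18 of the 94 tested genes of the lists were DE, against 5.18% of all genes. They were P3H2, TLL1, ADAMTS14, OGN, ASPN, PRELP, COMP, ABI3BP, ITGA11, SCX and SOX9, all lower, and MMP3, MMP8, MMP13, CTSK, DDR1, TGFB2 and SOX5, all higher. MMP8 was at 6.33 (SE 1.16, adjusted p = 0.0717 without the block and 0.00613 with it). In the same blocked fit 0 fibrillar collagen members were DE. With IL-1β + IL1Ra 0 genes of the lists were DE against control or against IL-1β without the block, and with it MMP8 alone was DE against control (log2-fold change 4.91, adjusted p = 0.0498).

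Markers of other cell types were read beside these results. In the first batch the summed smooth muscle and pericyte markers ranged from 37501 to 126785 normalised counts in controls and from 15332 to 34415 with IL-1β. This sum was lower without overlap, as were COL1A1, COL1A2, COL5A1 and COL11A1. Of its genes, MYH11 by itself overlapped, at 1555 to 10703 in controls and 1032 to 3057 with IL-1β. Summed chondrocyte markers ranged from 7427 to 42972 in controls and from 102 to 1154 with IL-1β, again without overlap. Most of that sum was ACAN, the large cartilage proteoglycan, at 6340 to 40668 in controls and 13.7 to 872 with IL-1β. MATN1 and COL9A1 were at or near 0 in both groups (1.75 and 0.963 at most), and MATN3 had a median of 7.13 in controls and 18.1 with IL-1β. Summed tendon markers ranged from 152390 to 237464 in controls and from 70759 to 193402 with IL-1β, and these groups overlapped. The sum joins markers that differed in direction: DCN, an abundant small proteoglycan, had a median of 59314 in controls and 117019 with IL-1β, whereas SCX ranged from 822 to 2110 and from 9.69 to 205, and MKX from 792 to 4654 and from 33.6 to 459. Their part in the collagen differences was not tested.

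Leukocyte markers summed to between 320 and 2319 normalised counts in the controls of the first batch and to between 549 and 3972 with IL-1β, and PTPRC, the pan-leukocyte marker, was at 0 in all 5 controls and at 3.64 at most with IL-1β. Endothelial markers summed to 84.7 at most. Bone markers ranged from 1344 to 30213 in controls and from 12054 to 79780 with IL-1β, and adipocyte markers from 127 to 3687 and from 544 to 4753. For these 4 lists the sums of the control and IL-1β libraries overlapped. Single markers could differ from their sum. CD68, of the leukocyte list, ranged from 56.4 to 173 in controls and from 296 to 1359 with IL-1β, while the other leukocyte markers overlapped. In the bone list ALPL had a median of 3608 in controls and 40600 with IL-1β, and RUNX2 of 1001 and 937. In the second batch PTPRC reached 6.46 at most, and the endothelial sum stayed between 10.8 and 45.6.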

How the data were processed

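RNA from 19 tenocyte cultures was sequenced as paired-end mRNA libraries. Per the study's methods, the authors quantified horse transcripts (EquCab3.0) by Salmon, brought them to gene level by tximport and normalised the 2 batches separately with DESeq2 1.36 under R 4.2.1. The deposited signal values are these DESeq2-normalised counts, 1 table per batch. Single reads were not recoverable, which left out count models, and counting error could not be separated from the spread between lines.

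From there, log2(normalised count + 1) was computed, genes were kept that reached 10 normalised counts in 5 or more libraries (first batch) or 3 or more (second batch), and limma 3.58.1 in R 4.3.3 (lmFit, eBayes with trend) was fitted to each batch, with p-values adjusted by Benjamini-Hochberg over all 14719 or 16705 genes. Fold changes are on this log2 scale and understate those of low genes. DE follows the thresholds of the study. The 3 conditions of the second batch entered 1 fit. The script was tested on simulated data.

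Libraries of a line come from the same donor line. The correlation of their deviations from condition means lay between 0.35 and 0.58 for the 5 pairs of the first batch and between 0.54 and 0.79 for the 9 of the second, so the line pairs the libraries. The line as a block is an alternative fit, since the study states none. Chain ratios were compared by exact permutation over libraries. A planned ratio of COL3A1 to COL1A1 was not run.

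Members, gene lists and markers were chosen with earlier results of these data known. Named from each list were all members, and up to 4 DE genes with the largest log2-fold change in the first batch, plus genes whose count in a sentence is small. For each of COL1A1, COL5A1 and COL11A1 the 3 genes with the highest correlation were named, with members and names starting with LOC left out. PRELP, CTSK, DDR1, TGFB2, SOX9, FMOD, MMP1, FAP and the single markers of cell type lists were named after their values were seen.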

Additional observations from a re-analysis of the deposited data

Results flagged for a closer look

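COL24A1 in the IL-1β library of line 3 stood apart from the other 4 IL-1β libraries of the first batch. Its log2(normalised count + 1) was 3.22, the nearest of the others was 5.30, and this gap took up 0.80 of the whole range, above the critical value of 0.71 for 5 samples. The control of the same line held 10.2 normalised counts, also the lowest of its group. Of such groups 30 were examined, and chance alone sets off about 1 in 20.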

How the results depend on the processing

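In the first batch 3 to 5 members were DE under 14 alternatives. There were 3 without line 5 (COL1A2 lost), 5 with the line as a block (COL5A3 gained) and 5 by adjusted p alone (COL5A2 gained). Of all 14719 genes, 1377, 2386 and 4078 were called in these 3 settings, against 1885 in the main fit. The block changed no other member's call. In each comparison of the second batch 0 members were DE under every alternative run. Of 392 alternative values for single members, 372 kept direction and side of the threshold and 18 changed sign, none of them in a DE member.

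Scaling to equal library sums moved the median of all genes from −0.0084 to −0.19 for IL-1β against control in the second batch, and COL27A1 to −0.0437. It moved that median to 0.11 for IL-1β + IL1Ra against IL-1β. Leaving out 1 line at a time, COL24A1 ranged from −0.23 to 0.015 in the first batch. In the second, with IL-1β against control, COL5A2 ranged from −0.86 to 0.17, COL24A1 from −0.38 to 1.08 and COL27A1 from −0.062 to 0.49, while COL1A1 (−1.57 to −0.30), COL1A2 (−1.10 to −0.080), COL5A1 (−1.69 to −0.58) and COL11A1 (−3.52 to −2.28) kept their sign. For IL-1β + IL1Ra against control the ranges were −1.56 to 0.050 for COL1A1, −1.01 to 0.27 for COL1A2, −0.79 to 0.091 for COL5A2 and −0.25 to 0.79 for COL24A1, and, without a change of sign, −1.44 to −0.19 for COL5A1, −2.21 to −0.53 for COL5A3 and −2.53 to −1.06 for COL11A1. For IL-1β + IL1Ra against IL-1β they were −0.54 to 0.75 for COL1A1, −0.41 to 0.45 for COL1A2, −0.21 to 0.86 for COL5A1, −0.076 to 0.33 for COL5A2, −1.20 to 0.37 for COL5A3 and −0.29 to 0.12 for COL24A1, and 0.088 to 2.46 for COL11A1.

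With the line as the replicate block the ratios differed by −0.50, −1.13 and −1.89, the same values by construction, and none passed because sign flips over 5 lines cannot go below an exact p of 0.0625. Leaving out 1 line gave −0.55 to −0.41 for COL1A1 to COL1A2, −1.25 to −0.996 for COL5A1 to COL5A2 and −2.19 to −1.67 for COL11A1 to COL5A1. Smaller permutation sets raise the smallest possible p by construction.

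Over all genes, DE counts in the second batch moved with the block from 57 to 865 (IL-1β), from 2 to 42 (IL-1β + IL1Ra against control) and from 0 to 1 (against IL-1β). Without line 6 they were 324, 36 and 10, and without line 7 or line 8 they were 0. The count for IL-1β was 34 without trend and 32 with only both conditions in the fit, and in the first batch it went from 1885 to 4078 by adjusted p alone. For IL-1β + IL1Ra against control it was 1 with equal library sums, 3 without trend and 0 with only both conditions in the fit. The cause was not tested.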

Other observations

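In the first batch the SD of the log2 level was larger with IL-1β than in control for each of the 8 tested members, for example 0.36 and 0.70 for COL1A1, 0.43 and 0.83 for COL5A1, 0.15 and 0.48 for COL5A2 and 0.29 and 0.77 for COL27A1 (control, then IL-1β, n = 5 lines each). The median SD over all tested genes was 0.28 in controls and 0.29 with IL-1β. The share of all genes with a larger SD with IL-1β was not computed, and members that vary together between lines are not separate observations. In the second batch the SD of COL1A1 was 0.98 in controls, 0.32 with IL-1β and 1.25 with IL-1β + IL1Ra, and that of COL5A1 was 0.76, 0.40 and 0.86. COL1A2, COL5A2 and COL11A1 also had a smaller SD with IL-1β than in controls. That of COL5A3 was 1.08 in controls and 1.11 with IL-1β, that of COL24A1 0.81 and 1.09 and that of COL27A1 0.16 and 0.47. The median over all genes was 0.37 in controls, 0.50 with IL-1β and 0.38 with IL-1β + IL1Ra. These SDs were not tested.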
